A study of Mus musculus with 12 samples.

Results

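The sodium-coupled and facilitative glucose transporters were described in whole mouse kidneys with and without A1cf, from 9 genes chosen by name: Slc5a1, Slc5a2, Slc5a9, Slc5a10 and Slc5a11 of the sodium-coupled family, and Slc2a1, Slc2a2, Slc2a4 and Slc2a12 of the facilitative family. All 9 were among the 46882 gene names of the count table, and all 9 were among the 16910 genes with enough counts to be tested. The kidneys came from C57BL/6 mice aged 6 to 8 weeks, of which 6 were wild type (WT: animals 573, 590, 601, 776, 777 and 778) and 6 were A1cf -/- (A1cf KO: animals 574, 584, 588, 591, 602 and 780). RNA of whole kidney was sequenced, so fewer cells of a type and less RNA per cell cannot be told apart. A1CF is an RNA-binding protein first described as a partner of APOBEC1 in the editing of apolipoprotein B mRNA, and the comparison asks how its loss changes the kidney transcriptome.

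Glucose that is filtered in the glomerulus is taken back by the proximal tubule. Sodium-coupled carriers of the SLC5 family draw sugar from the tubular fluid across the apical membrane, driven by the sodium gradient, and facilitative carriers of the SLC2 family let it leave across the basolateral membrane. SGLT2 with GLUT2 carries most of this flow in the early proximal tubule, and SGLT1 takes up what is left in the late segment. SGLT4 and SGLT5 favour mannose and fructose, SMIT2 carries myo-inositol, GLUT1 is widely expressed, and GLUT4 is the insulin-responsive carrier of muscle and fat.

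Genotype and tissue were checked first. Levels are given as CPM, a read count scaled to the size of its library. A1cf stood at 4.11 ± 1.07 CPM in A1cf KO against 54.5 ± 7.39 CPM in WT (SD, n = 6 each), and every A1cf KO library lay below every WT library. Total counts ran from 26671705 to 52899139 per library. Markers of the proximal tubule and thick ascending limb were abundant in all libraries, with Slc34a1 between 3064 and 6326 CPM and Umod between 1876 and 3656 CPM. The summed CPM of 9 markers of the early proximal tubule lay between 9575 and 14534 in WT libraries and between 10653 and 14829 in A1cf KO libraries. For 8 markers of its late segment the sums lay between 3001 and 5043 and between 3826 and 4995. Of 5 skeletal muscle markers, Myh4 was at 0 counts everywhere, and their sum stayed between 1.22 and 2.85 CPM.

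In the deposited annotation of mm10, reads were counted over the merged exons, UTRs included, of each gene. The sodium-coupled genes were Slc5a1 at chr5:33104219-33162870 (plus strand), Slc5a2 at chr7:128265657-128272430 (plus strand), Slc5a9 at chr4:111875375-111902918 (minus strand), Slc5a10 at chr11:61672781-61720826 (minus strand) and Slc5a11 at chr7:123214780-123273253 (plus strand). The facilitative genes were Slc2a1 at chr4:119108711-119137983 (plus strand), Slc2a2 at chr3:28697903-28731359 (plus strand), Slc2a4 at chr11:69942539-69948188 (minus strand) and Slc2a12 at chr10:22645011-22704285 (plus strand).

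RefSeq start sites were matched for 6 of the 9 genes, with 7 promoters in all, and not for Slc5a2, Slc5a9 and Slc2a4. Shown here are the stretches upstream of the counted exons for the most abundant of the 9 (Slc5a10, its more upstream promoter) and for the basolateral carriers of the early and late proximal tubule (Slc2a2 and Slc2a1), 5′ to 3′ on the strand of the gene in GRCm38.p6. They are chr11:61720827-61721049 (minus strand), chr3:28697653-28697902 (plus strand) and chr4:119108495-119108710 (plus strand). Capitals mark matches on either strand to the HNF4 core CAAAGTCCA, the nuclear receptor motif AGGTCA or the GC box GGGCGG, and no 2 of these overlapped in the stretches shown.
Slc5a10: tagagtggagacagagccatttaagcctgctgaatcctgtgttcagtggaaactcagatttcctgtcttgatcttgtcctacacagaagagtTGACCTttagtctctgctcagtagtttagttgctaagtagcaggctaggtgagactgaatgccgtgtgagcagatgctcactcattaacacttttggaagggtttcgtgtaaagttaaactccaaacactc
Slc2a2: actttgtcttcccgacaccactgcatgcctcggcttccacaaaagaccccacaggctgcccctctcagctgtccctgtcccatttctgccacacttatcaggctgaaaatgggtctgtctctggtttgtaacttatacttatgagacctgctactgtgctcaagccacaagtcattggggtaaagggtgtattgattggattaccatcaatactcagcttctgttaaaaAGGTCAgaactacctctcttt
Slc2a1: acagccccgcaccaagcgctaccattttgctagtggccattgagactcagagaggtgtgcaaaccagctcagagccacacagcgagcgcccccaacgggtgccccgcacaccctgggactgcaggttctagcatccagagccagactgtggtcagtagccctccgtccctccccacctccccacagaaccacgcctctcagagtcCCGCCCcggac
Over the 250 bases upstream of each RefSeq start, Slc5a10 (more upstream promoter), Slc2a2 and Slc5a11 each held 1 nuclear receptor motif. Of all 32851 mouse promoters of the same length, 14% held the nuclear receptor motif and 0.384% the HNF4 core. The window of Slc2a1 held 2 GC boxes, 1 of them in the stretch shown, against 32.7% of all promoters with at least 1. A match of letters is a description of the sequence and does not show that a factor binds.

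Slc5a10 was the most abundant transporter transcript per length in both genotypes. Levels of different genes were compared only as RPKM, which divides CPM by kilobases of merged exon. In WT, Slc5a10 (SGLT5) had 133 ± 29.1 RPKM, which was 44.3% of the sum over the 9 genes, and Slc5a2 (SGLT2) had 64.4 ± 9.51 RPKM, 21.8% of the sum. Slc2a2 (GLUT2) followed with 30.2 ± 5.67 RPKM, Slc5a1 (SGLT1) with 23.6 ± 3.37 RPKM and Slc5a11 (SMIT2) with 19.9 ± 4.35 RPKM. The lower group held Slc2a1 (GLUT1) with 10.4 ± 1.07 RPKM, Slc5a9 (SGLT4) with 7.70 ± 1.57 RPKM and Slc2a4 (GLUT4) with 6.64 ± 0.43 RPKM. Slc2a12 (GLUT12) was lowest, with 1.95 ± 0.26 RPKM (all SD, n = 6).

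The order by mean level was the same in A1cf KO. Library ranges of neighbours overlapped in both genotypes between Slc2a2 and Slc5a1, Slc5a1 and Slc5a11, Slc2a1 and Slc5a9, and Slc5a9 and Slc2a4, so these orders are not separated beyond the spread. Slc5a10 and Slc5a2 were separate in WT (lowest Slc5a10 at 89.5 RPKM, highest Slc5a2 at 79.2 RPKM) but met in A1cf KO (74.4 and 74.7 RPKM). Exons of Slc5a2 share 597 of 2897 bases with BC017158, and those of Slc5a10 share 393 of 2365 bases with Fam83g, in both cases on the other strand. The deposited counts used no strand, so reads there cannot be told apart by strand. With shared bases left out of the length, Slc5a10 came to 159.7 RPKM and Slc5a2 to 81.1 RPKM in WT, and the order of the 9 was the same.

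**Figure D1:**
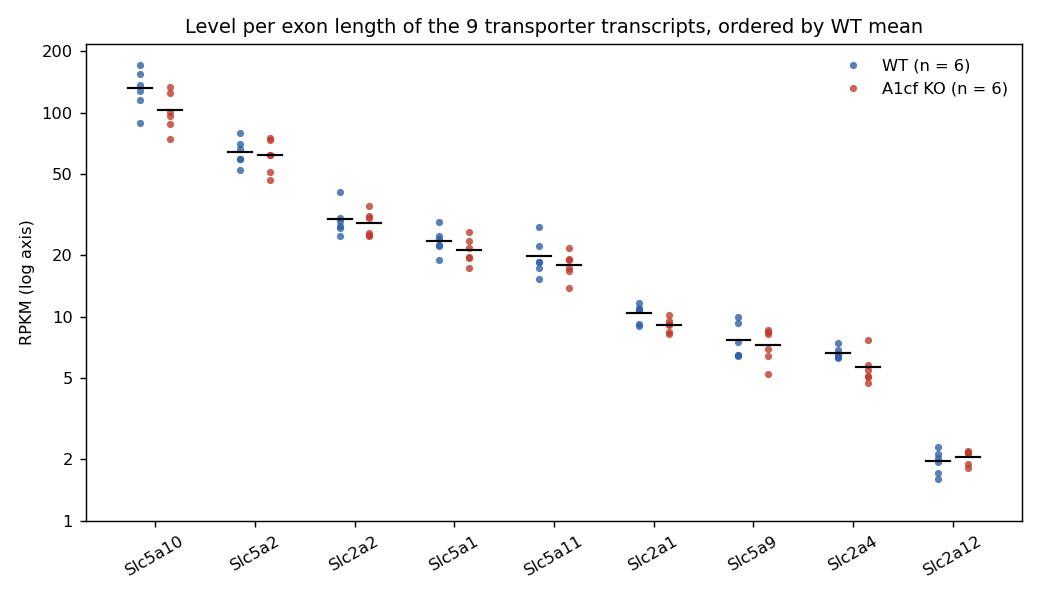
RPKM (log axis) of each transporter transcript, 1 point per library, with 6 WT libraries in blue and 6 A1cf KO libraries in red, group means as black lines and genes ordered by the WT mean. Slc5a10 leads in both genotypes and Slc2a12 is lowest at 1.95 RPKM in WT.

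No glucose transporter gene passed the threshold between genotypes. In the edgeR quasi-likelihood test with Benjamini-Hochberg adjustment over all genes, 0 of the 9 had an adjusted p under 0.05, where 0.0473% of all genes tested passed (0.0355% lower, 0.0118% higher), and DESeq2 (1.11% of its genes called) and limma-voom also called 0. At an unadjusted p under 0.05, 3 of the 9 were lower and 0 higher in A1cf KO, beside 5.28% and 5.07% of all genes tested. The fold change was negative for 8 of the 9, beside 50.8% of all genes, and the median log2 fold change of the 9 was -0.14 beside -0.0030 for all genes. Genotypes overlapped for each of the 9, while they did not for 0.84% of all genes (0.52% lower and 0.319% higher in A1cf KO).

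Neither of the main apical glucose carrier genes, Slc5a2 and Slc5a1, passed the threshold between genotypes. Slc5a2, the high-capacity SGLT2 of the early proximal tubule, ran from 151 to 229 CPM in WT (median 182) and from 135 to 217 CPM in A1cf KO (median 179.7). The highest libraries were WT 590 and A1cf KO 588, the lowest A1cf KO 780, and the ranges overlapped over most of their width. Its log2 fold change was -0.06 (95% interval -0.32 to 0.20, edgeR adjusted p = 0.89), and -0.17 with the series of animal numbers (573 to 602 or 776 to 780) as a covariate (edgeR adjusted p = 0.54). Slc5a1, the high-affinity SGLT1 of the late segment, ran from 77.7 to 119 CPM in WT (median 95.3) and from 71.4 to 106 CPM in A1cf KO (median 84.8). WT 776 stood highest and A1cf KO 574 lowest, with a log2 fold change of -0.15 (95% interval -0.37 to 0.08, edgeR adjusted p = 0.66). Per length, Slc5a2 exceeded Slc5a1 by 1.45 ± 0.21 log2 units in WT and 1.53 ± 0.34 in A1cf KO (SD, n = 6 each), so the ratio differed between genotypes by less than its spread.

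Slc5a10 showed the largest mean difference of the 9 together with the widest spread. This carrier, SGLT5, takes up mannose and fructose in the proximal tubule. It ran from 212 to 407 CPM in WT (median 313) and from 176 to 315 CPM in A1cf KO (median 232). In A1cf KO, 5 of 6 libraries lay below the WT mean, yet WT 573 was lower than 4 of the A1cf KO libraries. The log2 fold change was -0.37 (95% interval -0.71 to -0.03, unadjusted p = 0.034, edgeR adjusted p = 0.44). By an exact permutation of the genotypes, two-sided, p was 0.082. The animal numbers fall into 573 to 602 (3 WT, 5 A1cf KO) and 776 to 780 (3 WT, 1 A1cf KO), and the log2 fold change was -0.25 with this series as a covariate and -0.29 within 573 to 602 (edgeR adjusted p = 0.49 and 0.72).

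For the remaining sodium-coupled carriers, the estimate of the genotype difference changed when the animal number series was taken into account. Slc5a9, the mannose carrier SGLT4, ran from 33.3 to 51.8 CPM in WT (median 36.4) and from 27.2 to 44.6 CPM in A1cf KO (median 39.2). Its WT libraries formed 3 values between 39.1 and 51.8 and 3 between 33.3 and 33.7, and the A1cf KO libraries spanned both. Slc5a11, the myo-inositol carrier SMIT2, ran from 42.3 to 75.7 CPM in WT (median 50.9) and from 38.3 to 60.2 CPM in A1cf KO (median 49.95). The log2 fold changes were -0.08 for Slc5a9 (95% interval -0.38 to 0.22) and -0.14 for Slc5a11 (-0.43 to 0.14), with edgeR adjusted p of 0.88 and 0.74. With series as a covariate, Slc5a9 was at -0.24 (unadjusted p = 0.020, edgeR adjusted p = 0.30) and Slc5a11 at -0.28 (unadjusted p = 0.012, edgeR adjusted p = 0.26). Within animals 573 to 602 alone they were at -0.22 and -0.28 (edgeR adjusted p = 0.71 and 0.66), so both differences were larger when series was taken into account, without passing the threshold.

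**Figure D2:**
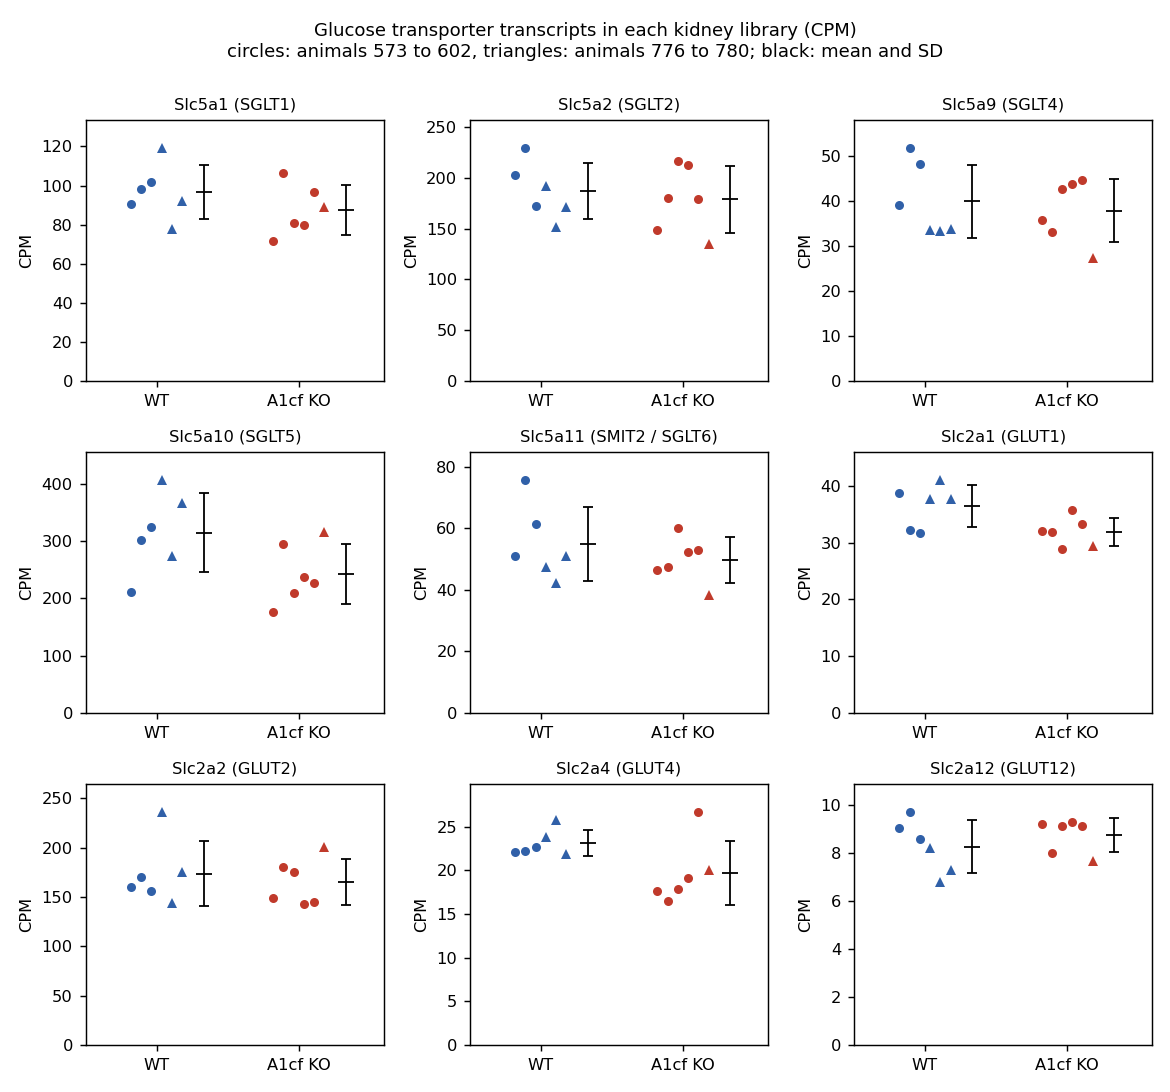
CPM (each axis from 0) of the 9 transporter transcripts in each library, for WT (blue) and A1cf KO (red), with circles for animals 573 to 602, triangles for animals 776 to 780, and the mean and SD (n = 6) in black. The genotypes overlap in every panel, and the triangles lie low for Slc5a9 and Slc5a11.

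On the basolateral side, neither Slc2a2 nor Slc2a1 passed the threshold, and the fold change was smaller for Slc2a2. Slc2a2, the low-affinity GLUT2 paired with SGLT2, ran from 144 to 236 CPM in WT (median 165) and from 142 to 200.1 CPM in A1cf KO (median 162). A single library, WT 776, set the WT maximum, the next one being at 175 CPM. Its log2 fold change was -0.07 (95% interval -0.32 to 0.18, edgeR adjusted p = 0.87), and 0.04 without WT 776. Slc2a1, the GLUT1 of late proximal and distal segments and endothelium, ran from 31.7 to 41.1 CPM in WT (median 37.7) and from 28.9 to 35.8 CPM in A1cf KO (median 32.03). All 6 A1cf KO libraries lay below the WT mean, but only 2 lay below the lowest WT library.

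For Slc2a1 the log2 fold change was -0.19 (SE 0.075, unadjusted p = 0.021, edgeR adjusted p = 0.39). An exact two-sided permutation gave p = 0.032. The fold change was -0.17 with series as covariate and -0.08 in animals 573 to 602 alone (edgeR adjusted p = 0.41 and 0.87). Summed CPM of 7 thick ascending limb markers was lower in every A1cf KO library (3596 to 4598) than in any WT library (4782 to 7058). By edgeR adjusted p 0 of the 7 were called. All 7 were lower at an unadjusted p under 0.05 by edgeR, beside 5.28% of all genes tested. DESeq2 called 4, beside 1.11% of its genes. Taken singly, 2 did not overlap between genotypes, beside 0.84% of all genes. The 4 distal convoluted tubule markers summed to between 927 and 1512 CPM in WT and between 925 and 1212 CPM in A1cf KO. For 8 collecting duct markers the sums lay between 411 and 624 CPM and between 410 and 505 CPM. All 4 and the 7 tested collecting duct markers had negative fold changes, beside 50.8% of all genes. By edgeR 0 were called, and 2 of each list were lower at an unadjusted p under 0.05, beside 5.28% of all genes. The 6 endothelial markers summed to between 136 and 264 CPM in WT and between 157 and 247 in A1cf KO. The 5 red cell transcripts summed to between 215 and 388 CPM and between 132 and 419 CPM. The part of these cell types in the Slc2a1 values was not tested.

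In both genotypes, Slc2a4 was highest in the library with the most fat marker RNA. This gene for GLUT4 ran from 21.8 to 25.8 CPM in WT (median 22.4) and from 16.5 to 26.7 CPM in A1cf KO (median 18.5). The WT values were tight, 5 of 6 A1cf KO libraries lay below the lowest of them, and A1cf KO 602 lay above the highest. The log2 fold change was -0.23 (95% interval -0.45 to -0.02, unadjusted p = 0.036, edgeR adjusted p = 0.44). Without A1cf KO 602 it was -0.34 (unadjusted p = 2.3e-04, edgeR adjusted p = 0.10), and over all 22 alternatives the adjusted p ran from 0.10 to 0.78.

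The 6 fat cell markers summed to between 16.2 and 299 CPM in WT and between 0.79 and 389 CPM in A1cf KO. WT 777 and A1cf KO 602 held the highest sum of their genotype and also the highest Slc2a4 of their genotype. Adipoq, the adiponectin gene that defines fat cells, ran from 3.80 to 39.4 CPM in WT and from 0.083 to 62.6 CPM in A1cf KO. At the other end, A1cf KO 588, with a fat sum of 0.79 CPM, still had 17.8 CPM of Slc2a4. The lowest Slc2a4 of all 12 libraries, 16.5 CPM, was in A1cf KO 584, which had a fat sum of 126 CPM. The median fat sum was 113 CPM in A1cf KO against 42.6 CPM in WT, the opposite direction to that of Slc2a4, and the part of fat in the genotype difference was not tested.

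**Figure D3:**
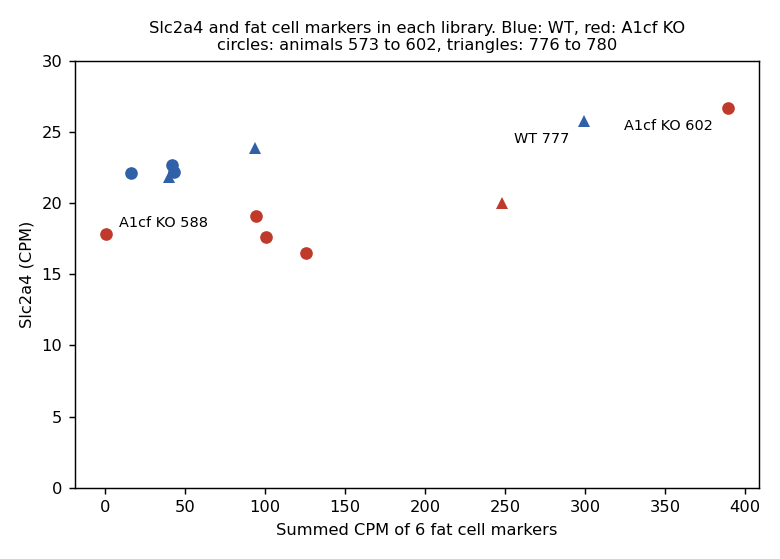
Slc2a4 (y axis, CPM, from 0) against the summed CPM of 6 fat cell markers (x axis) in each library, for WT (blue) and A1cf KO (red), with circles for animals 573 to 602 and triangles for 776 to 780. The highest Slc2a4 of each genotype is in its library with the most fat marker RNA, WT 777 and A1cf KO 602, while A1cf KO 588 has 17.8 CPM of Slc2a4 at a fat sum of 0.79 CPM.

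Slc2a12 was the only one of the 9 with a positive fold change in the edgeR fit of all 12 libraries. This GLUT12 gene ran from 6.78 to 9.70 CPM in WT (median 8.37) and from 7.65 to 9.28 CPM in A1cf KO (median 9.11), so the A1cf KO range lay inside that of WT. The log2 fold change was 0.08 (95% interval -0.13 to 0.29, edgeR adjusted p = 0.81). With the series covariate it was -0.0044, so its sign is not settled.

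**Figure D4:**
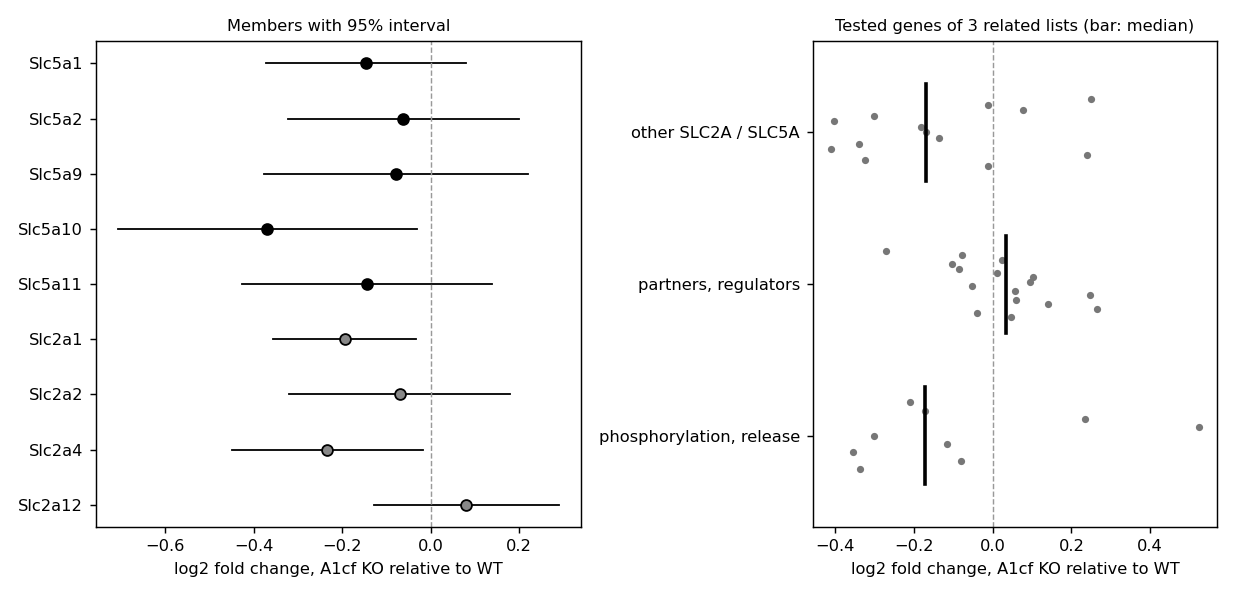
Difference of A1cf KO from WT on the log2 scale (horizontal axis, 6 libraries each) of the 9 transporters with 95% intervals (left; black for sodium-coupled, grey for facilitative), and of the tested genes of 3 related lists as points with list medians as bars (right). The intervals of Slc5a10, Slc2a1 and Slc2a4 lie below 0, and none of the 9 passed the adjusted threshold.

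Related genes were likewise below the threshold by edgeR. Of 16 other SLC2A and SLC5A genes 13 were tested and 0 were called, with 3 lower and 1 higher at an unadjusted p under 0.05 and a median log2 fold change of -0.17. Slc2a5, the fructose carrier GLUT5, ran from 106 to 160 CPM in WT and from 81.95 to 130 CPM in A1cf KO. All 6 A1cf KO libraries lay below the WT mean and 5 below the lowest WT library (log2 fold change -0.41, unadjusted p = 0.0028, edgeR adjusted p = 0.26). Slc5a8, a sodium-coupled monocarboxylate carrier, ran from 237 to 311 CPM in WT and from 297 to 387 CPM in A1cf KO, with 4 libraries above the highest WT library (log2 fold change 0.25, edgeR adjusted p = 0.35). Within animals 573 to 602 its log2 fold change was 0.09 (edgeR adjusted p = 0.82). Slc2a9, a urate carrier, had 39.3 ± 3.52 and 34.96 ± 1.39 CPM in WT and A1cf KO, respectively (SD, n = 6 each, edgeR adjusted p = 0.38).

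Among 16 partners and regulators 0 were called, and the median log2 fold change was 0.035. Hnf4g, a nuclear receptor gene, had 7.54 ± 1.48 CPM in A1cf KO against 6.35 ± 0.85 CPM in WT (SD, n = 6 each, edgeR adjusted p = 0.54). Txnip, which limits glucose uptake, had 639.7 ± 157 CPM against 772 ± 181 CPM (log2 fold change -0.27, edgeR adjusted p = 0.62), and its log2 fold change was -0.07 with the series covariate (edgeR adjusted p = 0.84).

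For glucose phosphorylation and release, 9 of 10 genes were tested, 0 were called, 2 were lower at an unadjusted p under 0.05, and the median log2 fold change was -0.17. Hk1, the hexokinase that phosphorylates glucose, ran from 97.6 to 135 CPM in WT and from 74.3 to 117 CPM in A1cf KO, with 4 A1cf KO libraries below the lowest WT library (log2 fold change -0.30, edgeR adjusted p = 0.35, and -0.18 with adjusted p = 0.78 within animals 573 to 602). Khk, the fructokinase, had 688 ± 59.6 and 610.3 ± 38.4 CPM, and Slc37a4, the glucose 6-phosphate carrier of the endoplasmic reticulum, had 368 ± 48.1 and 318 ± 47.4 CPM (WT first, SD, n = 6 each, edgeR adjusted p = 0.41 and 0.51). The log2 fold change of Slc37a4 was -0.21, and -0.14 with the series covariate (edgeR adjusted p = 0.58). DESeq2 and limma-voom also called 0 genes of these 3 lists.

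Highs and lows of several members fell in the same libraries. WT 590 had the highest value of all 12 libraries for 4 members (Slc5a2, Slc5a9, Slc5a11 and Slc2a12), and WT 776 for 3 (Slc5a1, Slc5a10 and Slc2a2). A1cf KO 780 had the lowest value for 3 members, Slc5a2, Slc5a9 and Slc5a11. The ratio of highest to lowest library was between 1.42 (Slc2a1) and 2.31 (Slc5a10).

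Of 36 pairs of members, Slc5a9 and Slc5a11 followed each other most closely over the 12 libraries. Pearson's r of log2 CPM was 0.91 (permutation p = 2e-05, adjusted p = 7.2e-04 over 36 pairs) and Spearman's rho was 0.92 (permutation p = 6e-05, adjusted p = 0.0022). Without the 2 libraries farthest from the median of Slc5a9, r was 0.83. It was 0.91 for deviations from the genotype means and 0.87 in the 8 libraries of animals 573 to 602, and the 4 of 776 to 780 are too few for a value of their own. Slc5a2 and Slc5a11 had r = 0.78 (permutation p = 0.0022, adjusted p = 0.040) and rho = 0.73 (permutation p = 0.0099, adjusted p = 0.12), and r = 0.55 without the 2 extreme libraries of Slc5a2, so that relation rests partly on those. By contrast, the apical and basolateral partners showed r near 0: it was 0.0050 for Slc5a2 with Slc2a2 (permutation p = 0.99, rho = 0.042, permutation p = 0.90, adjusted p = 0.99 and 0.95) and 0.027 for Slc5a1 with Slc2a1 (permutation p = 0.93, rho = -0.084, permutation p = 0.80, adjusted p = 0.97 and 0.90). Without the 2 extreme libraries of the apical gene, r was 0.28 and -0.32, and in animals 573 to 602 it was 0.34 and -0.0030. Slc2a2 had a higher r with Slc5a1 (0.63) and Slc5a10 (0.65), with a permutation adjusted p of 0.11 each, and rho was 0.55 and 0.48. Without the 2 extreme libraries of Slc5a1 or of Slc5a10, r was 0.30 and 0.41, and in animals 573 to 602 it was 0.42 and 0.36. Slc5a2 with Slc2a2 had 0.28 and 0.34 under the same settings, so the higher r over all 12 libraries rests partly on a few of them.

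**Figure D5:**
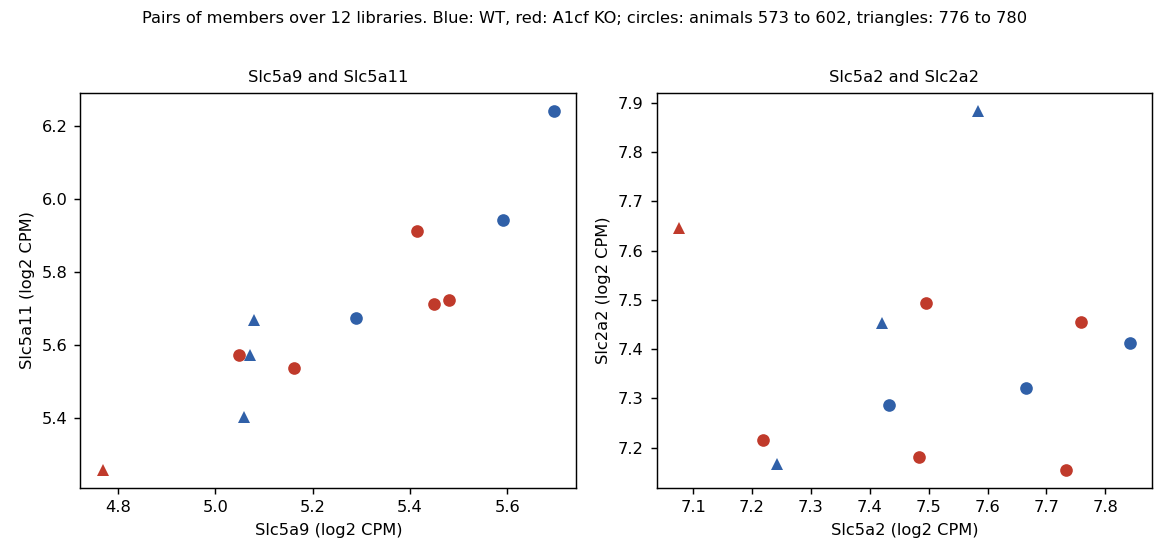
Log2 CPM of Slc5a11 against Slc5a9 (left) and of Slc2a2 against Slc5a2 (right) in the 12 libraries, for WT (blue) and A1cf KO (red), with circles for animals 573 to 602 and triangles for 776 to 780. Slc5a9 and Slc5a11 rise together (r = 0.91), and the triangles lie at their lower end, while r is 0.0050 for Slc5a2 and Slc2a2.

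Slc5a9 and Slc5a11 were lower in the animals numbered 776 to 780. The labels do not say what separates the 2 number series, and this comparison was added after the data were seen. With genotype and series in 1 edgeR fit, 2 of the 9 members passed an adjusted p of 0.05, both lower in 776 to 780, where 0.798% of all genes were called in that direction, 2.1% in the other and 2.9% in either. Slc5a9 had 39.1 to 51.8 CPM in WT animals 573 to 601, 33.3 to 33.7 CPM in WT animals 776 to 778 and 27.2 CPM in A1cf KO 780, below the 33.05 to 44.6 CPM of the other A1cf KO libraries. The series difference was -0.50 on the log2 scale (SE 0.098, edgeR adjusted p = 0.015). Slc5a11 had 51.04 to 75.7 CPM and 42.3 to 50.8 CPM in the same WT groups, and 38.3 CPM in A1cf KO 780 against 46.4 to 60.2 CPM (log2 difference -0.43, SE 0.10, edgeR adjusted p = 0.044).

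Both calls rest on few libraries. Slc5a9 was no longer called without WT 590 (adjusted p = 0.0503) or A1cf KO 780 (adjusted p = 0.12). Slc5a11 was lost without any of WT 590, WT 601, WT 776, WT 777, A1cf KO 588, A1cf KO 591, A1cf KO 602 or A1cf KO 780 (adjusted p from 0.052 to 0.19). Within WT alone, 3 against 3 libraries, the adjusted p was 0.10 for Slc5a9 and 0.23 for Slc5a11 by edgeR. Slc2a12 had the same direction (log2 difference -0.27, edgeR adjusted p = 0.11), as did Slc5a2 (-0.32, adjusted p = 0.16), whereas Slc5a10 (0.37, adjusted p = 0.20) and Slc2a2 (0.24, adjusted p = 0.28) had the opposite one.

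The genes with the most similar pattern were sought for each member by Pearson's r of log2 CPM over the 12 libraries, among 16909 other tested genes. For Slc5a9 they were Agmat and Prss8 (r = 0.95 each), and Slc5a11 was close to Cela1 (r = 0.96). Slc2a12 was closest to Fgfr4 (r = 0.95) and Fam151a (r = 0.93), and Slc2a4 to Pkm (r = 0.94) and Krt7 (r = 0.92). Slc5a1 was closest to Rasd2 (r = 0.93) and Fabp1 (r = 0.91), Slc5a2 to Srebf2 (r = 0.91) and Napa (r = 0.90), and Slc5a10 to Eno1 (r = 0.91) and Gm42690 (r = 0.91). Slc2a1 was closest to Gm43062 and 4732465J04Rik (r = 0.94 each), and Slc2a2 to Snx5 (r = 0.91) and Npm1 (r = 0.86). These are the highest values of many, so they carry no p-value and describe these libraries only.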

How the data were processed

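RNA sequencing covered 12 whole kidneys, 6 per genotype. The authors assigned reads to gene names, per the file headers, with featureCounts 1.5.0-p2 over GENCODE M8 exons, with no strand, pair or duplicate option, so the deposited values are raw counts. STAR, DESeq2 and the mm10 build are named in the submitters' processing notes, without versions. Positions and exon lengths are those of the deposited table, and promoters are from RefSeq on GRCm38.p6.

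Differences were tested with edgeR 4.0.16 under R 4.3.3: filterByExpr by genotype, TMM scaling, and the quasi-likelihood F test with Benjamini-Hochberg adjustment over all 16910 genes, with a threshold of 0.05. The SE is the log2 fold change over the root of F, and intervals are at 95%. Log2 CPM uses a prior count of 2. Correlations used 100000 permutations. Alternatives used limma 3.58.1, DESeq2 1.42.0, other scalings and filters, the series as a covariate, animals 573 to 602 only, and leaving out each library. Simulated counts for this comparison covered 16675 genes. Recovered were 70.1% of 67 genes changed 1.5-fold, 91% of 67 changed 2-fold and 100% of 66 changed 3-fold, with 3 false calls. No change below 1.5-fold was simulated, and every transporter changed by less (the largest was Slc5a10, log2 fold change -0.37). More genes were changed in the simulation than the 8 called in the main test, which eases the adjusted threshold. The rates therefore do not tell how often transporter changes of the size seen would be called. Intervals cover the spread between libraries only.

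The members and lists were chosen with earlier results of these data known. Genes named are A1cf, the 9 members, the 3 genes with the smallest p of each of 3 pathway lists (and any called), the 2 genes nearest in pattern to each member, and marker genes as sums, with the abundant or defining ones named. Slc34a1, Umod, Adipoq and Myh4 were singled out after their values were seen. Libraries were grouped by the genotype in their titles. Some genes that this rule names are not reported here.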

Additional observations from a re-analysis of the deposited data

Results flagged for a closer look

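Of 38 groups of 6 libraries checked (19 genes in 2 genotypes), 3 held a library far from the other 5 by Dixon's test, and chance marks about 1 group in 20. Slc2a2 stood at 236 CPM in WT 776, where the next WT library had 175 CPM and the lowest 144 CPM. Slc2a4 stood at 26.7 CPM in A1cf KO 602, where the next had 20.04 CPM and the lowest 16.5 CPM. Slc2a5, the fructose carrier gene, stood at 130 CPM in A1cf KO 780, where the next had 99.9 CPM and the lowest 81.95 CPM.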

How the results depend on the processing

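Across 22 alternatives, 0 of the 9 transporters and 0 genes of the 3 related lists were called in any. Over all genes, 8 were called in the main test, 6 to 12 when 1 library was left out, 170 by DESeq2 and 24 with the series covariate, with none of the 9 among them. The sign of the genotype difference was kept in all 22 for Slc5a1 (-0.21 to -0.08), Slc5a10 (-0.46 to -0.25), Slc5a11 (-0.28 to -0.03), Slc2a1 (-0.23 to -0.08) and Slc2a4 (-0.34 to -0.19). With series as covariate it turned for Slc2a2 (0.0089) and Slc2a12 (-0.0044). It turned for Slc2a2 without WT 776 (0.038) and for Slc2a12 in animals 573 to 602 alone (-0.027). It also turned for Slc5a2 without WT 590 (0.0063) or A1cf KO 780 (0.0073), and for Slc5a9 without WT 590 (0.011). Leaving out 1 library moved Slc5a2 between -0.12 and 0.0073, Slc5a9 between -0.13 and 0.011, and Slc2a2 between -0.13 and 0.038. With series as covariate, Slc5a2 was at -0.17 and Slc5a9 at -0.24, the lowest values of these genes over the 22 alternatives. The cause was not tested. The values that turned sign all lay near 0. Slc5a9 with series as covariate had an unadjusted p of 0.020 by edgeR (adjusted p = 0.30).

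By level per length, all 9 members kept their rank in A1cf KO and with shared exon bases left out. By CPM without length, 7 of 9 kept it, with Slc5a9 above Slc2a1. The 2 members that differed between animal number series were 1 by limma-voom, 0 within WT alone and 0 to 2 when 1 library was left out. Under DESeq2, 3 passed, Slc2a12 being the added one (-0.28, adjusted p = 0.0495). The near-zero series difference of Slc5a1 (0.0046) turned negative with no filter (-0.0019), by limma-voom (-0.0031) and within WT (-0.0079), and lay between -0.098 and 0.091 with any 1 library removed. No paired analysis was possible because each animal number occurs once, in 1 genotype.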
